A study of Mus musculus with 3 samples.

Results

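The genes described here make, break down and sense the second messengers cGMP and cAMP in the mouse aorta. They were taken from the arrays by name: every probe whose gene symbol, in the files or in its current form, begins with Pde or Adcy and a digit, or with Gucy, Prkg, Prkac or Prkar, or is Npr1, Npr2 or Npr3. That gave 115 of the 41174 probes on the array and 53 genes. Of these, 51 were measured, meaning that Cy3 or Cy5 lay well above background for a probe on 2 or more of the 3 arrays, and 22167 features were measured in all (a feature is a gene, or a probe with no current gene symbol). Adcy8, a neuronal adenylyl cyclase, and Pde6a, a rod photoreceptor phosphodiesterase subunit, did not reach that level. The current symbol alone brought in 2 genes, Pde12 and Adcy10, and 2 genes share only the name: Pde4dip encodes myomegalin, a centrosome and Golgi scaffold that binds a phosphodiesterase, and Pde12 encodes an enzyme that trims short RNA chains in mitochondria.

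The labels give the tissue as aorta, although their growth protocol describes embryonic stem cells; the tissue label was followed. Each of 3 two-colour arrays compared 1 aorta sample from mice labelled Plk1(+/-), which carry 1 working copy of the mitotic kinase gene Plk1, with the same pool of 3 wild-type aorta samples. All animals were 129/CD1 mice of 3 to 5 months, and the labels call the 3 Plk1(+/-) samples biological replicates. Their RNA was always in Cy5 and the pool always in Cy3, so dye and genotype cannot be told apart, and the pool counts as 1 control sample whose own spread is not in any test. Values below are log2 ratios of the sample labelled Plk1(+/-) over the pool, given for samples 1, 2 and 3 in that order, then as mean ± SD (n = 3). A gene is represented by its brightest measured probe, and p-values are from limma, adjusted by the Benjamini-Hochberg method over all 22167 features with a threshold of 0.05.

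Cyclic GMP is made by soluble guanylyl cyclase, a heterodimer of an alpha and a beta subunit that binds nitric oxide from the endothelium, and by the membrane receptors for natriuretic peptides. In vascular smooth muscle it activates cGMP-dependent protein kinase, which lowers cell calcium and the calcium sensitivity of contraction, and phosphodiesterases end the signal. Cyclic AMP, made by the adenylyl cyclases downstream of G proteins, acts mainly through protein kinase A (PKA) and also relaxes smooth muscle.

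Between 66.0% and 69.0% of spots were well above background in Cy3 and between 77.0% and 80.8% in Cy5, and from 574 to 627 spots per array were saturated in Cy5. Plk1 itself measured -0.06, -0.08 and 0.42 (0.10 ± 0.28; adjusted p = 0.706, limma), so its ratio did not tell the labelled genotype from the wild type. The 10 smooth muscle markers that define the tissue were all measured and all lay below 0 on every array, with medians of -0.64, -1.60 and -1.11, and the 2 that passed the test, Acta2 and Tagln, were both saturated in Cy5. The 10 endothelial markers had medians of 0.05, -0.01 and -0.18. Lymphocyte markers had medians of 0.16, 1.5 and 1.98, skeletal muscle markers of -0.72, -0.94 and -2.95, cardiac muscle markers of -2.33, 0.36 and -2.68, and autonomic neuron markers of 1.39, 0.71 and -0.38. The 3 samples thus differed from one another, and from the pool, in markers of several cell types. In bulk tissue, fewer cells of a type and less RNA per cell cannot be told apart.

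No member passed the test: 0 of 51 had an adjusted p under 0.05, beside 0.902% of all features (200 of 22167, of which 192 were lower and 171 lay on saturated probes). Prkar2b, saturated in Cy5 on all 3 arrays, had an adjusted p of 0.0783 (limma), and the lowest on an unsaturated probe was 0.0859 (Pde6h). With saturated features left out of the test, the lowest was 0.225. At an unadjusted p under 0.05 there were 14 members, 10 below 0 and 4 above, which is 27.5% of the measured members beside 18.9% of all features. By direction, those shares over all features were 9.78% lower and 9.15% higher. Without sample 2 the count was 8 members, beside 8.92% of all features, and without sample 2 or without sample 3 no feature of the array passed the adjusted threshold. On all 3 arrays 14 members lay below 0 (19.1% of all features did) and 12 lay above (26.3% of all features). Of those above, Pde8b, also among the 4 counted earlier, and Gucy2e passed the filter through Cy5 alone. Prkar2b, among those below, was saturated in Cy5. Where both dyes had to be well above background on all 3 arrays, 13 of 45 members had an unadjusted p under 0.05. Of these 3 lay above 0 and 10 below, and 3484 of 18328 features had such a p. The medians over the 51 members were 0.06, -0.01 and -0.02 on the 3 arrays, and the median of their means was 0.01 beside 0.04 over all features. As a set, then, the family sat at the array's centre, and the members below 0 on every array were single genes of several classes.

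**Figure D1:**
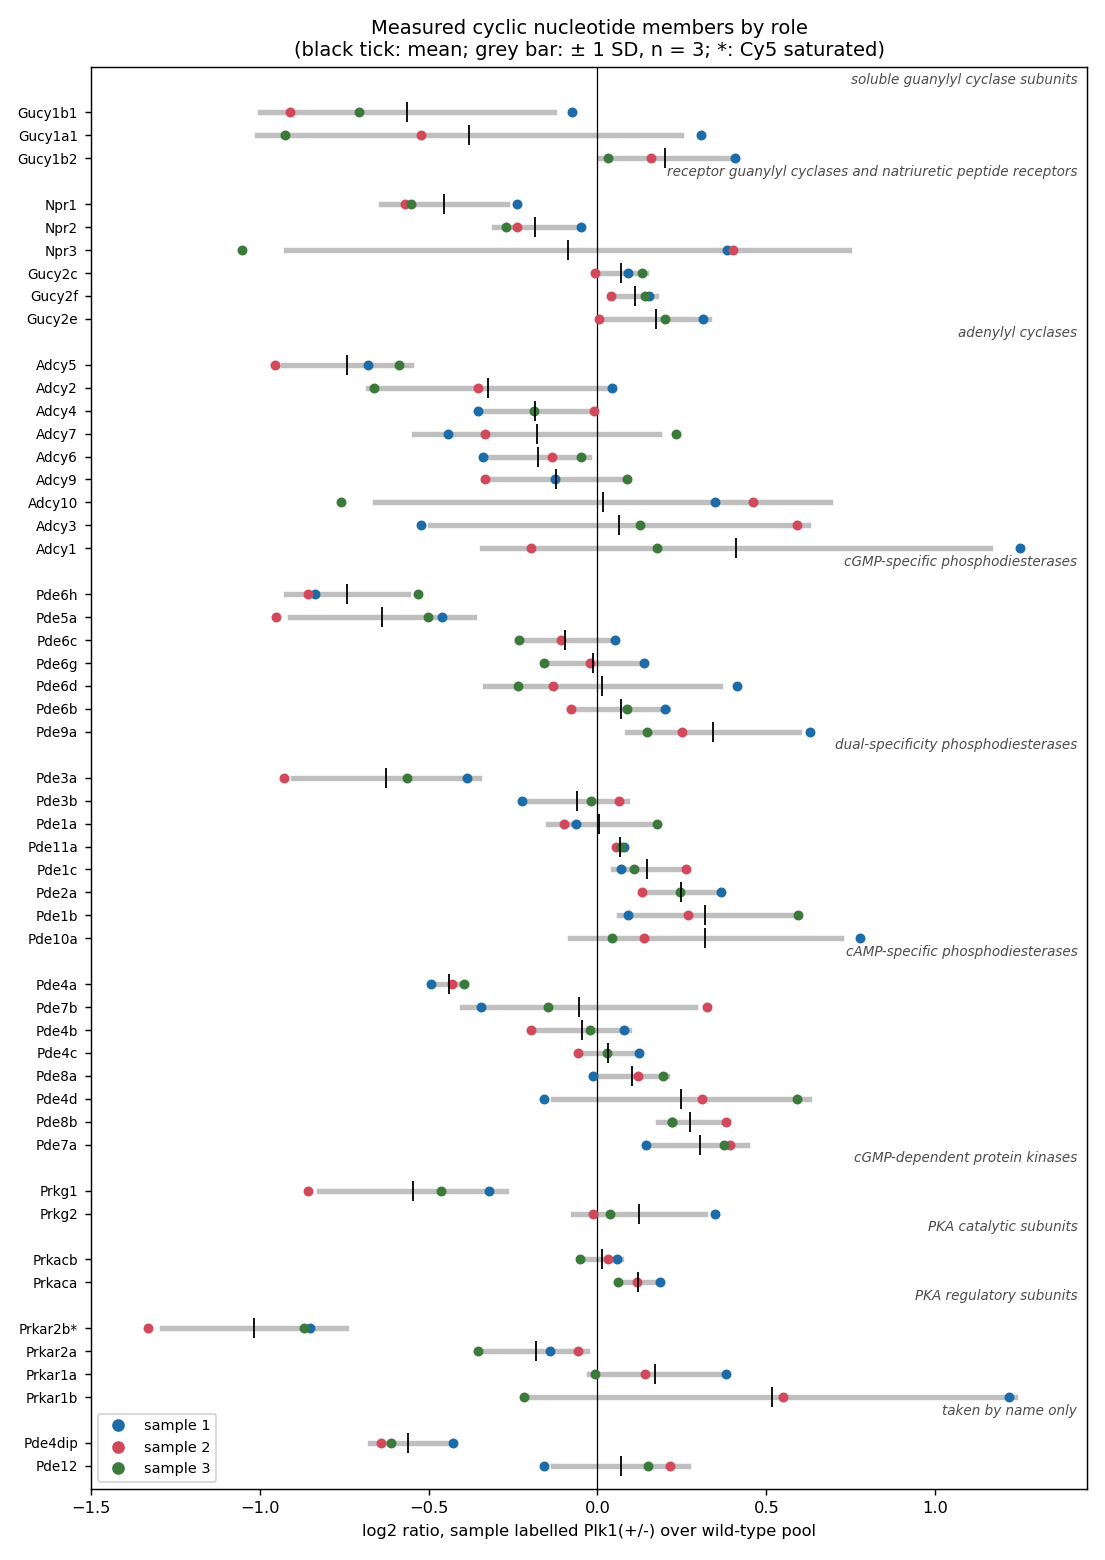
Log2 ratio of each measured member on the 3 arrays (coloured points), with the mean (black tick) and ± 1 SD (grey bar), grouped by role and ordered by mean within a role. All 3 points lie below 0 for 14 members. Of these, Gucy1b1, Npr1, Adcy5, Pde6h, Pde5a, Pde3a, Pde4a, Prkg1, Prkar2b and Pde4dip have an unadjusted p under 0.05 (limma). The remaining ones, Npr2, Prkar2a, Adcy4 and Adcy6, do not. Adcy1, Prkar1b, Npr3 and Adcy10 have the widest spread. The asterisk marks Prkar2b, saturated in Cy5 on all 3 arrays.

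Soluble guanylyl cyclase was measured through 3 subunits, of which the beta subunit of the common enzyme lay lowest. Gucy1b1, the haem-binding beta subunit, measured -0.08, -0.91 and -0.71 (-0.56 ± 0.44; unadjusted p = 0.0339, adjusted p = 0.238, limma), and -0.15 on average when arrays were centred on their median instead of by loess. Gucy1a1, its usual alpha partner in vessels, measured 0.31, -0.52 and -0.93 (-0.38 ± 0.63; adjusted p = 0.459), and its mean turned to 0.02 under that median centring. Sample 1 stood above samples 2 and 3 for both subunits of the dimer, and for Gucy1a1 it lay on the other side of 0. Gucy1b2, a second beta subunit, measured 0.41, 0.16 and 0.03 (0.20 ± 0.19; adjusted p = 0.353), above 0 on each array. The alpha subunit Gucy1a2 was not analysed here.

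The pattern of the dimer did not rest on a single probe. Gucy1b1 had 3 measured probes, with means from -0.58 to -0.37, and all 3 lay below 0 on every array. Gucy1a1 had 4 measured probes, with means from -0.41 to -0.23, and each was above 0 in sample 1 and below 0 in samples 2 and 3. The probes are 60 bases long and the first 30 bases of the 3 Gucy1b1 probes are shown to make plain that they are separate stretches of the transcript. In the array design's build, mm7, they lie on the minus strand at chr3:82137107-82137166, chr3:82137962-82138021 and chr3:82139211-82139270, and exon and untranslated positions were not determined because no annotation of that build was used.
Gucy1b1 probe 1: tcattttaattctagcatagaatggactga
Gucy1b1 probe 2: aggctttctcctagttacacagatctcaca
Gucy1b1 probe 3: ccagtgtctatgaagggcaagaaggaacca

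Among the receptor guanylyl cyclases and natriuretic peptide receptors, Npr1 had the lowest mean and was the one with an unadjusted p under 0.05. Npr1, the receptor for atrial and B-type natriuretic peptide, measured -0.24, -0.57 and -0.55 (-0.45 ± 0.19; unadjusted p = 0.00816, adjusted p = 0.174, limma), 1.37-fold lower. It had a single probe, which spans an intron at chr3:90585984-90586477 (mm7, minus strand).
Npr1 probe: acctgttttgatgctgtcatagacaacttt

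Npr2, the receptor for C-type natriuretic peptide, measured -0.05, -0.24 and -0.27 on its brightest probe (-0.19 ± 0.12; adjusted p = 0.304), with a mean of 0.23 under median centring. Its other probes did not read alike: the second measured -0.31, -0.50 and -0.62 (-0.48 ± 0.16) and the third 0.09, 0.18 and 0.47 (0.24 ± 0.20). The first 2 lie at chr4:43664832-43664891 and chr4:43662168-43662227 and the third further upstream, across an intron, at chr4:43646613-43647345 (mm7, plus strand). These probes give Npr2 no single direction, and their first 30 bases are shown so that the transcripts they read can be looked up.
Npr2 probe 1: ggcaatggtcactgtgtttccacacagcaa
Npr2 probe 2: cacttcttaatgacctttatacctgctttg
Npr2 probe 3: agagccaggtggccctgagcaagccaccca

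Npr3, the clearance receptor that removes natriuretic peptides and has no cyclase domain, measured 0.38, 0.40 and -1.05 (-0.09 ± 0.83; adjusted p = 0.9, limma). Its other 2 probes measured 0.08, 0.56 and -0.79, and 0.23, 0.57 and -0.75, so on all 3 probes sample 3 lay far below samples 1 and 2. Without sample 3 its mean was 0.39, and under median centring it was 0.37. The remaining receptor cyclases lay close to 0: Gucy2c, the guanylin receptor of the intestine, had a mean of 0.07, and the retinal cyclases Gucy2f and Gucy2e had means of 0.11 and 0.17, with Gucy2e not well above background in Cy3 on any array and at -0.36 under median centring.

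Adcy5 was the adenylyl cyclase furthest below the pool. It encodes a calcium-inhibited cyclase of heart and vessel and measured -0.68, -0.95 and -0.59 (-0.74 ± 0.19; unadjusted p = 0.00127, adjusted p = 0.0901, limma), 1.67-fold lower. A second probe, which begins just before the first in the genome, measured -0.47, -0.84 and -0.44 (-0.58 ± 0.22). All values lay below 0 on both probes, and the mean stayed below 0 under median centring, at -0.39. The probes lie at chr16:34974255-34976923, across an intron, and chr16:34974195-34974254 (mm7, plus strand).
Adcy5 probe 1: acaacttccagatgaagattgggctcaaca
Adcy5 probe 2: ttgcagacttcgctatgaagctgatggacc

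The other 8 measured adenylyl cyclases had means from -0.32 to 0.41 and none reached an unadjusted p of 0.05. Adcy6, the closest relative of Adcy5 and also calcium-inhibited, measured -0.34, -0.14 and -0.05 (-0.17 ± 0.15; adjusted p = 0.351, limma) and Adcy4, an endothelial isoform, measured -0.35, -0.01 and -0.19 (-0.18 ± 0.17; adjusted p = 0.36). Both stayed below 0 on each array after loess and turned to 0.29 and 0.23 under median centring. Adcy3, a calmodulin-regulated cyclase known from olfactory neurons and also present in vascular muscle, measured -0.52, 0.59 and 0.13 (0.06 ± 0.56; adjusted p = 0.895), so its samples lay on both sides of 0. Adcy2 measured 0.04, -0.35 and -0.66, Adcy7 -0.44, -0.33 and 0.23, and Adcy9 -0.13, -0.33 and 0.09; the last 2 had means of -0.18 and -0.12 after loess and of 0.28 and 0.29 under median centring.

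The calcium-stimulated neuronal cyclase Adcy1 measured 1.25, -0.20 and 0.18 (0.41 ± 0.75; adjusted p = 0.496, limma), with sample 1 alone far above the pool. Without sample 1 its mean was -0.0093. Its other measured probes did not repeat that height: 2 of them measured 0.25 and 0.29 in sample 1, and the last one, not above background in Cy3 on any array, measured -0.14. Adcy10, the bicarbonate-sensitive soluble cyclase, measured 0.35, 0.46 and -0.76, with sample 3 apart from the others, as for Npr3.

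Of the cGMP-specific phosphodiesterases, Pde5a lay below the pool and Pde9a above it. Pde5a, the enzyme that ends the cGMP signal in vascular smooth muscle and the target of sildenafil, measured -0.46, -0.95 and -0.50 (-0.64 ± 0.27; unadjusted p = 0.00588, adjusted p = 0.159, limma), 1.56-fold lower. Its mean was the same, -0.64, under median centring, where its adjusted p was 0.028 (0.028 to 0.524 over the alternatives), and of Gucy1a1, Gucy1b1, Npr1, Npr2, Prkg1, Pde5a and Pde3a only Pde5a passed there. With the scanner's own log ratio and with the authors' series values the mean was -1.17, so the size of the difference depends on the processing. Pde5a has 1 probe under the naming rule, across an intron at chr3:122679359-122680746 (mm7, plus strand). A further probe upstream, at chr3:122546286-122546345, which the files describe as a fragment of the same enzyme, was not above background in Cy3 on any array and measured -0.05, -0.14 and -0.02.
Pde5a probe: cagacctagcactgtacattaagagacgag

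Pde9a, the phosphodiesterase of highest affinity for cGMP, measured 0.63, 0.25 and 0.15 (0.34 ± 0.25; unadjusted p = 0.0417, adjusted p = 0.251, limma), above 0 on every array and highest in sample 1.

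Pde6h, the inhibitory gamma subunit of the cone photoreceptor phosphodiesterase, measured -0.83, -0.86 and -0.53 (-0.74 ± 0.18; unadjusted p = 0.00114, adjusted p = 0.0859, limma), 1.67-fold lower, and passed the test under median centring (-0.66, adjusted p = 0.0238, limma) and under array weights (adjusted p = 0.0362), with a range of 0.0238 to 0.494 over the alternatives. With the scanner's own log ratio and with the authors' series values its mean was -1.21. Its second probe measured -0.41, -0.54 and -0.24 (-0.40 ± 0.15), so both lay below 0 in each sample. The 4 measured photoreceptor markers, among them rhodopsin and arrestin, had medians of 0.16, 0.07 and 0.01 on the 3 arrays, and the cone enzyme's catalytic subunit Pde6c measured 0.05, -0.11 and -0.23. Those photoreceptor genes thus lay near 0 where Pde6h lay below it, and the probes of Pde6h are printed so that they can be searched. They lie at chr6:136987978-136988037 and, across an intron, chr6:136985742-136987788 (mm7, plus strand).
Pde6h probe 1: aatggtagttcagtttcattgttgaataaa
Pde6h probe 2: catggaggggctaggaacagatatcacggt

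The other retinal subunits Pde6b, Pde6g and the prenyl-binding Pde6d had means of 0.07, -0.01 and 0.01.

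Among the phosphodiesterases that take both cyclic nucleotides, Pde3a lay furthest below the pool, and the others had means from -0.06 (Pde3b) to 0.32 (Pde10a). Pde3a, the cGMP-inhibited enzyme of heart, platelets and vessel wall, measured -0.39, -0.93 and -0.56 (-0.63 ± 0.28; unadjusted p = 0.00648, adjusted p = 0.165, limma), 1.54-fold lower, and had a mean of -0.32 under median centring. It had 1 measured probe, at chr6:141553813-141553872 (mm7, plus strand).
Pde3a probe: attctcgaagcgtatcaaatgacatcaaaa

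Its relative Pde3b, the insulin-responsive form of fat and liver, measured -0.22, 0.06 and -0.02 (-0.06 ± 0.15; adjusted p = 0.726, limma), and its mean turned to 0.31 under median centring. Pde2a, the cGMP-stimulated enzyme, measured 0.37, 0.13 and 0.24 (0.25 ± 0.12; unadjusted p = 0.0312, adjusted p = 0.232), but its second probe had a mean of 0.0061. Pde1a, a calmodulin-dependent form of smooth muscle, measured -0.06, -0.10 and 0.18 (0.0051 ± 0.15; adjusted p = 0.979), and its 4 probes had means from -0.07 to 0.0051. Its relatives Pde1b and Pde1c measured 0.09, 0.27 and 0.59 (0.32 ± 0.25; adjusted p = 0.269) and 0.07, 0.26 and 0.11 (0.15 ± 0.10; adjusted p = 0.364, with a mean of -0.13 under median centring). Pde10a, best known from the striatum, measured 0.78, 0.14 and 0.04 (0.32 ± 0.40; adjusted p = 0.376), with sample 1 far above the others, and Pde11a had a mean of 0.07.

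Of the cAMP-specific phosphodiesterases, Pde4a lay below the pool with the narrowest spread of the members below 0 on every array. Pde4a, a rolipram-sensitive enzyme, measured -0.49, -0.43 and -0.39 (-0.44 ± 0.05; unadjusted p = 0.00212, adjusted p = 0.111, limma) on a probe at chr9:21088068-21088127 (mm7, plus strand). Its second probe, upstream at chr9:21068180-21068239, measured -0.10, 0.02 and 0.02, and under median centring the brightest probe had a mean of -0.01. The reading therefore held for 1 of 2 probes and for 1 of 2 ways of centring.
Pde4a probe 1: ctttttgttgaagtggggtatggagagcca
Pde4a probe 2: acacacattatcctccccactgaagggtaa

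Pde4b, the isoform linked to inflammatory cells, measured 0.08, -0.20 and -0.02 (-0.05 ± 0.14; adjusted p = 0.781, limma) on its brightest probe, and 0.25 on average under median centring. A probe upstream of it, at chr4:101947595-101947654 (mm7, plus strand), measured 0.77, 0.34 and 0.50 (0.54 ± 0.22), while the remaining one, next to the brightest, measured 0.03, -0.18 and -0.14. The upstream probe thus stood above both others in each of the 3 samples.
Pde4b probe 1: gcagctgtatgtggtagtagaggccagttc
Pde4b upstream probe 2: tgccacagtttaatccgttcagtagacacg
Pde4b probe 3: ctggaagagactgacatagacattgcaaca

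Pde4d, the isoform bound to many anchoring proteins, measured -0.16, 0.31 and 0.59 (0.25 ± 0.38; adjusted p = 0.451, limma). Its other kept probes measured -0.22, -0.12 and 0.53, and, far upstream, 0.24, 0.12 and 0.09, the last in the reverse order of samples. An additional probe, described in the files as a homologue of Pde4d and lying in the same region, measured -0.01, 0.41 and 1.09, in the order of the brightest probe. The lymphocyte markers had that order too, with medians of 0.16, 1.5 and 1.98, and 9 of 10 lay above 0 on all 3 arrays. Their part in the result was not tested.

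Pde7a, a rolipram-insensitive form found in lymphocytes, measured 0.14, 0.39 and 0.37 (0.30 ± 0.14; unadjusted p = 0.0199, adjusted p = 0.207, limma), above 0 in each sample, while its second probe had a mean of -0.05. Pde8b, a high-affinity cAMP enzyme of adrenal and thyroid, measured 0.22, 0.38 and 0.22 (0.27 ± 0.09, unadjusted p = 0.0179, adjusted p = 0.203, limma). Its probe was not well above background in Cy3 on any array and passed the filter through Cy5 alone, so the size of its ratio is uncertain. The Pde8b mean was 0.15 without background correction and -0.08 under median centring. The other Pde8b probe lies on the strand opposite to the gene. Pde4c, Pde7b and Pde8a had means of 0.03, -0.06 and 0.10.

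The main kinase of the cGMP pathway, Prkg1, lay below the pool. Prkg1, cGMP-dependent protein kinase type I, through which nitric oxide relaxes smooth muscle, measured -0.32, -0.86 and -0.46 (-0.55 ± 0.28; unadjusted p = 0.0107, adjusted p = 0.182, limma), 1.46-fold lower. Its second measured probe gave -0.36, -0.72 and -0.45 (-0.51 ± 0.19), so both probes put sample 2 lowest and sample 1 highest. Under median centring the mean was -0.36. The probes lie at chr19:30264319-30264378 and chr19:30268225-30268284 (mm7, minus strand).
Prkg1 probe 1: gtgcaggtcaaattactatatgacatacta
Prkg1 probe 2: catgatgcctttgatcgatgctgctccagt

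Prkg2, the membrane-bound type of gut and bone, had a mean of 0.12 on a probe not above background in Cy3 on any array, and of -0.27 under median centring.

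Prkaca, the main catalytic subunit of PKA, measured 0.19, 0.12 and 0.06 (0.12 ± 0.06; adjusted p = 0.396, limma) and Prkacb 0.06, 0.03 and -0.05 (0.01 ± 0.06; adjusted p = 0.929), both within 0.2 of 0 in every sample. Prkar1a, the widespread type I regulatory subunit, measured 0.38, 0.14 and -0.0080 (0.17 ± 0.20; adjusted p = 0.408). Prkar1b, the neuronal type I subunit, measured 1.22, 0.55 and -0.22 (0.52 ± 0.72; adjusted p = 0.396), the widest spread among the PKA genes. Prkar2a had a mean of -0.18, and all 3 of its measured probes lay below 0 on every array after loess, while its mean was 0.02 under median centring.

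Prkar2b, the type II regulatory subunit abundant in fat and brain, was saturated in Cy5 on all 3 arrays and in Cy3 on none. A clipped Cy5 signal lowers the ratio, so its values give neither a size nor a sure direction. Neither a fold nor a rank is given. It measured -0.85, -1.33 and -0.87 (-1.02 ± 0.27; unadjusted p = 0.000929, adjusted p = 0.0783, limma). White fat markers had medians of -0.75, -1.12 and -1.01. The 4 of 7 below 0 on every array, Adipoq, Plin1, Fabp4 and Cidec, were the same 4 that were saturated. The unsaturated ones had no common direction: Lep measured 0.14, -0.13 and -1.35, Lipe 0.06, 0.16 and 0.29, and Retn -1.17, 0.39 and -0.65. The part of white fat markers in the result was not tested.

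Pde4dip, which is in the set by its name only, measured -0.43, -0.64 and -0.61 (-0.56 ± 0.11; unadjusted p = 0.00153, adjusted p = 0.0948, limma), with a mean of -0.07 under median centring. Its 6 measured probes had means from -0.56 to -0.0080. Without Pde4dip, Pde12 and the saturated Prkar2b, 12 of 48 members had an unadjusted p under 0.05, or 25%.

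Pde5a, Pde3a and Prkg1 shared an order of samples. All 3 lay lowest in sample 2, at -0.95, -0.93 and -0.86, and highest in sample 1, at -0.46, -0.39 and -0.32. The median of the 10 smooth muscle markers was lowest in sample 2, at -1.60, and highest in sample 1, at -0.64, and was below those genes in each sample. Other marker lists had the same order: adventitial fibroblast markers had medians of -0.18, -0.46 and -0.44 (6 of 7 below 0 on all arrays), white fat markers of -0.75, -1.12 and -1.01 (4 of 7), and red cell markers of -1.21, -1.36 and -1.31 (5 of 5). Pde6h, the cGMP-specific member with the lowest mean, did not share that order and was highest in sample 3. Gucy1b1 and Npr1 were also lowest in sample 2 and highest in sample 1, though Npr1 measured nearly the same in sample 3, whereas Gucy1a1 and Npr2 were lowest in sample 3. With 3 samples such an order is a description, and the part of any of these markers in the result was not tested.

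A second group stood high in sample 1. Adcy1, Prkar1b, Pde10a, Pde9a and Gucy1b2 measured 1.25, 1.22, 0.78, 0.63 and 0.41 there, and each was lower in both other samples. They are a choice and not all such members. Pde6d (0.41, -0.13 and -0.24) and Prkar1a (0.38, 0.14 and -0.0080), among others, were also highest in sample 1. The 7 measured autonomic neuron markers of 8 listed, among them tyrosine hydroxylase and dopamine beta-hydroxylase, had their highest median, 1.39, in the same sample, and 0.71 and -0.38 in the others. All 7 were highest in sample 1, from 1.15 to 1.76, and all 7 lay below 0 in sample 3. The 5 Schwann cell markers had the same order, with medians of 0.55, 0.21 and 0.03, and 3 of 5 lay above 0 on all arrays. Pde9a, Pde10a and Gucy1b2 likewise stayed above 0 in sample 3. Prkar1b kept the order of the neuron markers on its brightest probe, while Adcy1 was lowest in sample 2. The second Prkar1b probe, above background in Cy3 on 1 array, measured 0.09, 0.26 and -0.03, and the second Pde10a probe, also above background on 1, measured 0.21, -0.05 and -0.0033, so neither repeated the height of sample 1. The part of either marker list in the result was not tested.

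**Figure D2:**
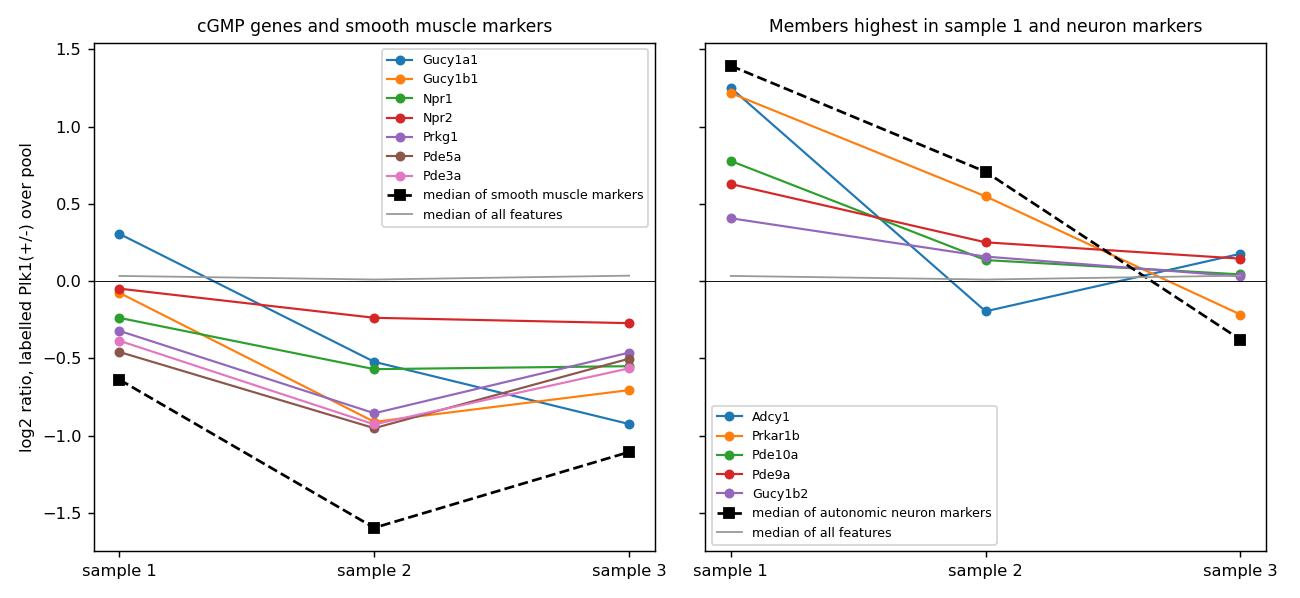
Log2 ratio over the wild-type pool in each of the 3 samples. The left panel has 7 cGMP genes beside the median of the smooth muscle markers. The right panel has 5 members, chosen from those highest in sample 1, beside the median of the autonomic neuron markers. Lines join the values of a gene and imply no order of the samples, and the grey line is the median of all features. Left, the marker median of -0.64, -1.60 and -1.11 lies below every gene; right, the neuron markers run from 1.39 to -0.38, and Prkar1b is the member closest to them.

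How far a reading can be trusted depended on the probe. Of the 53 members, 22 had 1 probe, and 27 had several measured probes. In 17 of those 27 the measured probes had means of 1 sign, and in 10 they did not (Adcy1, Npr2, Npr3, Pde12, Pde1a, Pde3b, Pde4b, Pde7a, Pde8b and Prkacb). In 4 members the probes' means differed by over 0.5, namely Adcy1, Npr2, Pde4b and Pde4dip. In 5 members, Adcy5, Gucy1b1, Pde6h, Prkar2a and Prkg1, all measured probes lay below 0 on all 3 arrays. Of the member probes, 23 map across more genome than their own length, the shortest such stretch being 70 bases (Pde11a), and 10 measured ones were not above background in Cy3 on any array. The measured member probes held a median of 43.3% G and C.

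**Figure D3:**
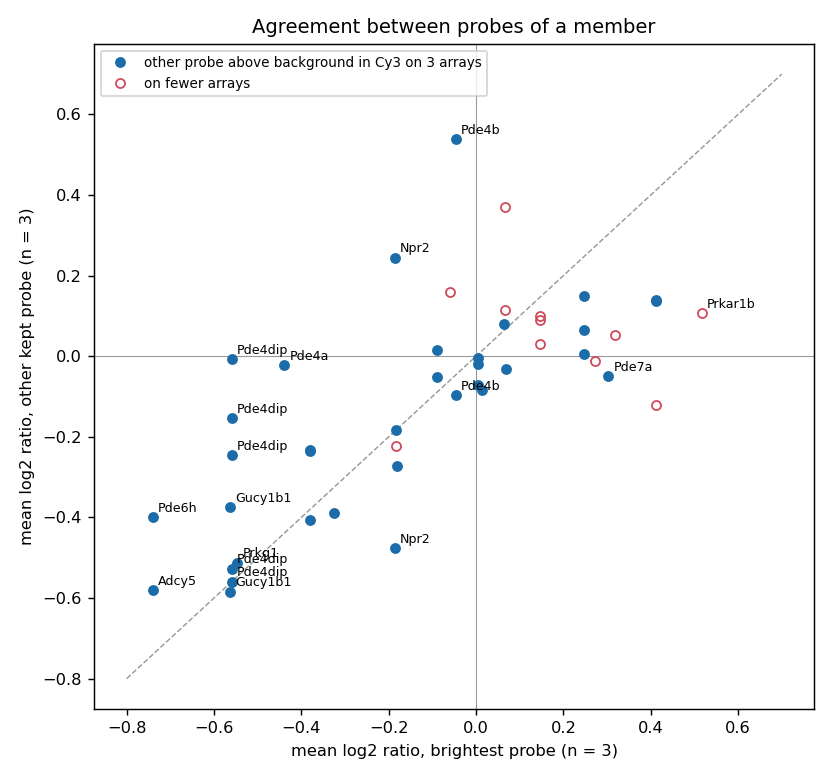
Mean log2 ratio (n = 3 arrays) of each further measured probe of a member against that of its brightest probe; filled points were well above background in Cy3 on all 3 arrays, open points on fewer, and the dashed line marks equal values. Adcy5, Prkg1, Gucy1b1 and Pde6h lie below 0 on both axes, while Npr2 at 0.24 and Pde4b at 0.54 mark probes that read above 0 where the brightest reads below it.

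The calls in this family depended on how arrays were centred. Loess, which makes the ratio flat over brightness, put the median of all features at 0.04, and centring each array on its median without loess put it at 0.23. With median centring the mean of 17 of the 51 members had the other sign. In that setting 14 members passed the test, where 44% of all features passed, 32.2% higher and 11.8% lower. The 10 higher were Gucy1b2, Pde1a, Pde1b, Pde2a, Pde7a, Pde8a, Pde9a, Prkaca, Prkacb and Prkar1a. The 4 lower were Gucy2e, Pde5a, Pde6h and the saturated Prkar2b. The members' median was 0.23 as well, the same as over all features. Relative to that median, Pde5a lay at -0.87 and Pde6h at -0.89, and Prkaca, Prkar1a and Pde1b lay at 0.39, 0.39 and 0.38. Median centring does not flatten the ratio over brightness, and these probes differed in it. Their mean log2 intensities were 7.51 for Pde5a, 7.81 for Pde6h, 14.86 for Prkaca, 11.99 for Prkar1a and 9.26 for Pde1b. The part of brightness in these distances was not tested. Gucy1b1, Npr1, Prkg1, Pde3a and Adcy5 stayed below 0 under median centring, at -0.15, -0.32, -0.36, -0.32 and -0.39, without passing the test. Weighting the arrays by their quality gave 4 members past the threshold, all lower (Adcy5, Pde4dip, Pde6h and the saturated Prkar2b), where 1.96% of all features passed.

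**Figure D4:**
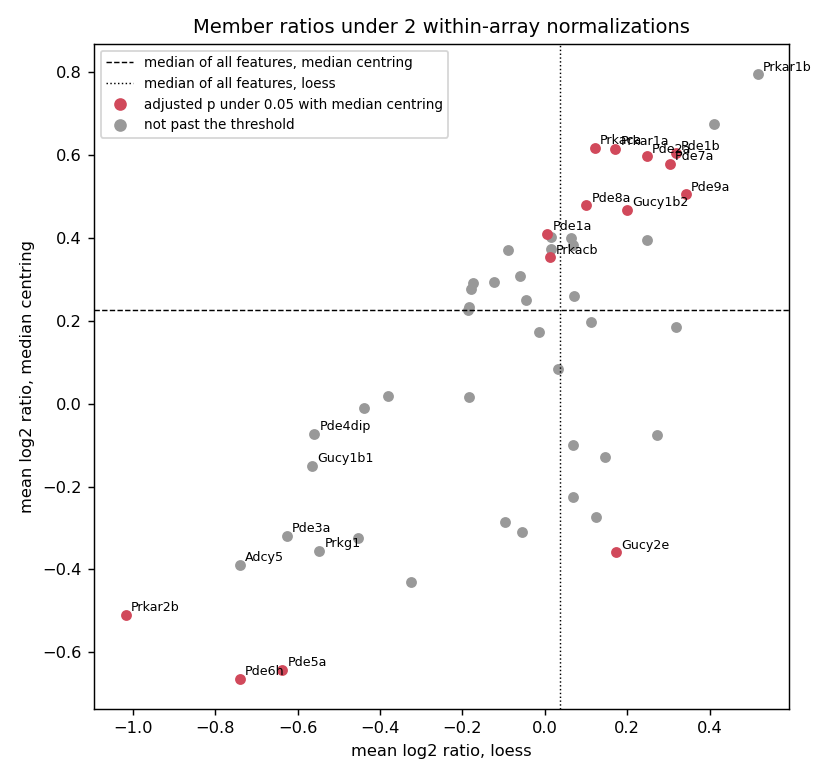
Mean log2 ratio (n = 3 arrays) of each measured member after median centring (vertical) against that after loess (horizontal); the dashed and dotted lines mark the medians of all features, 0.23 and 0.04. The 14 members in red passed an adjusted p of 0.05 after median centring, none did after loess, and of the red members only Pde5a, Pde6h and Prkar2b lie below 0 on both axes.

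The partners of these enzymes were measured through 46 further genes, of which 45 passed the background filter. None passed the test (0 of 45 beside 0.902% of all features), and 13 reached an unadjusted p under 0.05 (2 above 0, 11 below), or 28.9% beside 18.9% of all features. Their median mean was -0.09. Upstream of soluble guanylyl cyclase, endothelial nitric oxide synthase Nos3 measured -0.30, -0.27 and -0.44 (-0.33 ± 0.09; unadjusted p = 0.00873, adjusted p = 0.177, limma), with 0.05 under median centring, and neuronal Nos1 measured -0.10, -0.45 and -0.81. The peptide genes Nppa, Nppb and Nppc, whose products bind the Npr receptors, had means of -0.16, 0.11 and -0.23, none past an unadjusted p of 0.05.

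Downstream of both kinases, all 8 listed substrates and effectors had means below 0 after loess, while Vasp and Rgs2 lay at 0.26 and 0.38 under median centring. Irag1, the receptor-associated substrate through which the kinase holds back calcium release, measured -0.58, -1.54 and -0.69 (-0.94 ± 0.52; unadjusted p = 0.0107, adjusted p = 0.183, limma). Ppp1r12a, the myosin phosphatase targeting subunit, measured -0.36, -1.04 and -0.29 (-0.56 ± 0.41; adjusted p = 0.23), and Hspb6, a small heat shock protein phosphorylated by both kinases, measured -0.10, -0.64 and -1.05 (-0.59 ± 0.48; adjusted p = 0.243). Irag1 and Ppp1r12a lay lowest in sample 2, as Prkg1, Pde5a and Pde3a did. Of the 8, these 3 had an unadjusted p under 0.05, and the list's median was -0.34.

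On the cAMP side, the heat-stable PKA inhibitors lay on both sides of 0. Pkib measured 0.77, 0.66 and 0.92 (0.78 ± 0.13; unadjusted p = 0.000499, adjusted p = 0.0533, limma), and Pkia measured -0.06, -0.90 and -1.29 (-0.75 ± 0.63; adjusted p = 0.247). Bves, a membrane protein that binds cAMP, measured -0.87, -1.48 and -1.65 (-1.34 ± 0.41; adjusted p = 0.0879). Of 5 G protein alpha subunits, Gnai1 and Gnai2, which inhibit adenylyl cyclase, had means of -0.21 and -0.20, and turned to 0.24 and 0.23 under median centring, while the stimulatory Gnas had a mean of 0.07. Of 11 A-kinase anchoring proteins 1, Akap13, had an unadjusted p under 0.05, with a mean of -0.29 and 0.11 under median centring. None of the 5 measured CREB family genes did. Abcc4, which exports cyclic nucleotides, measured 0.27, 0.32 and 0.29 (0.29 ± 0.02; unadjusted p = 0.00856, adjusted p = 0.177).

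Promoter sequences of 42 of the 53 members were matched in RefSeq (GRCm38.p6), in 82 windows of the 250 bases before an annotated start. The full cAMP response element, TGACGTCA, was found in 1 of 82 windows (1.22%), that of Prkar1a, beside 1.55% of 32851 windows of the same length over all genes. Its half-site, TGACG or CGTCA on either strand, which also counts every full element, was found in 16 of 82 windows (19.5%) beside 17.8%. The GC box, GGGCGG or CCGCCC, was found in 34 of 82 windows (41.5%), in 27 of 42 genes, beside 32.7%. The CArG box, the binding motif of serum response factor in smooth muscle genes, was in 0 of 82 windows beside 1.47%. A match is a string of letters, not a bound site.

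The promoters of the receptor cyclase Npr1, the cyclase subunit Gucy1b1 and the phosphodiesterase Pde5a are printed. Npr1 and Gucy1b1 stand for making cGMP and Pde5a for ending its signal, and each had values below 0 on every array. Capitals mark GC boxes and cAMP half-sites. Gucy1b1 is at chr3:82074712-82074961 on the minus strand, Npr1 at chr3:90465867-90466116 on the minus strand and Pde5a at chr3:122728908-122729157 on the plus strand (GRCm38.p6). Gucy1b1 has 1 GC box and 1 half-site, Npr1 has 2 GC boxes and Pde5a has 1.
Gucy1b1 promoter: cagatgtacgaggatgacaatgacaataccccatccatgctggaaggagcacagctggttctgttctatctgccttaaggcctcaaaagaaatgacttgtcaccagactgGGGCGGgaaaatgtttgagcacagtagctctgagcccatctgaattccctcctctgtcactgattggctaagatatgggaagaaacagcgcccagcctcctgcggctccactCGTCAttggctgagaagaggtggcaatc
Npr1 promoter: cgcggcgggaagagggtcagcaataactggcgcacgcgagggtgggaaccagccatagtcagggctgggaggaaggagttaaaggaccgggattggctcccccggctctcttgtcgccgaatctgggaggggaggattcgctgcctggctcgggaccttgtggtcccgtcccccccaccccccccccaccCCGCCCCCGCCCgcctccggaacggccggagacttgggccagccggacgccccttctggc
Pde5a promoter: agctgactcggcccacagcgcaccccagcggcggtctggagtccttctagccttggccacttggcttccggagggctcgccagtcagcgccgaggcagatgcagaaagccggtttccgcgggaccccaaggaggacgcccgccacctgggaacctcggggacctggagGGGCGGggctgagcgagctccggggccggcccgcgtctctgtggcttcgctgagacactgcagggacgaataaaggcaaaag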

How the data were processed

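Labelled RNA of 3 aorta samples and 1 pool was read on 3 two-colour Agilent arrays. Per the file headers, Agilent Feature Extraction 9.5.3.1 produced the deposited spot intensity values, of which the raw mean signals were used. The deposited log10 ratio is Cy5 over Cy3 after the scanner software's background subtraction and dye normalization, per the file headers. The authors' series values are log2 ratios, with slopes of 0.997, 0.999 and 0.998 on the scanner log ratio and medians of -0.02, -0.0052 and -0.03, so their scale and direction were known and their centring was not given in the sources used here.

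With limma 3.58.1 (R 4.3.3), signals were background-corrected (normexp, offset 50), loess-normalized within arrays, with control spots at weight 0 and outlier-flagged spots left out, and averaged over spots of a probe. A probe was kept if Cy3 or Cy5 was well above background on 2 or more arrays, and the brightest kept probe stood for a gene. The ratio was tested against 0 (lmFit, eBayes), with Benjamini-Hochberg adjustment. The procedure was also run on simulated log ratios with known changes and independent noise. That simulation held no dye, saturation or cell type effects, and no result here rests on it. Genes named were every member, with array values for a list of vascular members, the 12 lowest p-values and the extreme means. The 13 alternatives changed background correction, centring, the source of the ratio, the filter, the treatment of saturated or several probes, the variance model and the samples included. Members, lists and alternatives were chosen with earlier results of these data known. The number of arrays limits the precision.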

Additional observations from a re-analysis of the deposited data

How the results depend on the processing

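Of 13 alternatives, 11 gave 0 members called, of 45 to 53 tested. Median centring gave 14 of 51. Array weights gave 4 of 51, all lower (Adcy5, Pde4dip, Pde6h and the saturated Prkar2b, beside 1.96% of features). Features called numbered 200, and 9763 with median centring, 434 with array weights, 120 with Agilent's deposited log ratio, 0 with saturated features left out (3815 at an unadjusted p under 0.05), and 0 to 174 with 1 sample left out. Both zeros came without sample 2 and without sample 3 (1977 and 3103 features at an unadjusted p under 0.05), so the calls of the whole array rested on each of them. Members at an unadjusted p under 0.05 numbered 23 with median centring and 8 to 16 with 1 sample left out (8 without sample 2). Their median was 0.23 with median centring, -0.037 in the authors' series values and -0.0096 to 0.034 with 1 sample left out. With median centring 17 of 51 means changed sign, and among the 32 members with full values these were the means of Gucy1a1 (0.018), Npr2 (0.23), Npr3 (0.37), Pde1c (-0.13), Pde3b (0.31), Pde4b (0.25), Adcy4 (0.23), Adcy6 (0.29) and Pde8b (-0.075). Pde1a turned to -0.034 with Agilent's log ratio and with the series values, to -0.022 with the mean over probes and to -0.039 with array weights. Npr3 turned to 0.12 with array weights, and the mean over probes turned Pde3b to 0.050, Pde4b to 0.13 and Prkacb to -0.036. With 1 sample left out, means ran from -0.33 to 0.39 for Npr3, -0.081 to 0.057 for Pde1a, -0.12 to 0.022 for Pde3b, -0.11 to 0.029 for Pde4b, -0.20 to 0.36 for Adcy3, -0.0096 to 0.045 for Prkacb and -0.0093 to 0.71 for Adcy1. Over the named members, 373 values kept direction and side of the threshold, 15 passed it newly and 24 changed sign. With Agilent's log ratio and with the series values Pde5a moved from -0.64 to -1.17 and Pde6h from -0.74 to -1.21. The cause was not tested. No paired analysis was possible because the labels give 1 group against 1 shared pool. Signal over background limits genes dim in Cy3, and saturation limits Prkar2b.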

Other observations

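Among 7 probes whose description in the files names a member gene or a homologue but whose name is only an accession, 4 were measured. One for Npr3, upstream of its other probes on the same strand, measured 0.55, 0.61 and 0.31 (0.49 ± 0.16; unadjusted p = 0.00438, adjusted p = 0.149, limma; 0.71 under median centring), while all 3 named Npr3 probes lay below -0.7 in sample 3. One for Adcy7 measured -0.23, -0.03 and 0.57 (0.11 ± 0.41; adjusted p = 0.762), in the same order of samples as the brightest Adcy7 probe.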
